A study of Mus musculus with 7 samples.

Results

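The RNA levels of 10 genes that encode Polycomb proteins or SMCHD1 were measured in chromatin-associated RNA of mouse embryonic stem (mES) cells in which METTL3, the enzyme that writes N6-methyladenosine (m6A) on RNA, was inhibited while Xist, the noncoding RNA that silences an X chromosome in cis, was induced. The members were taken by gene symbol from the expression table, where all 10 were found among 22556 genes, and all 10 passed the filter on low values, a mean of at least 1 RPM (read pairs scaled to the library's total on genes), that left 13599 genes for testing. They comprise Ring1, Rnf2, Pcgf3, Pcgf5 and Rybp of Polycomb repressive complex PRC1, Ezh2, Eed, Suz12 and Jarid2 of PRC2, and Smchd1. The cells were of the XX line C7H8 (iXist-ChrX Cast), 1 clone of a Mus castaneus × 129 cross grown on inactivated fibroblast feeder cells, in which a TetOn promoter drives Xist on the castaneus X chromosome. Every library came from cells that received Dox at 1 µg/mL for 24 h after 6 h with the solvent DMSO or with the METTL3 inhibitor STM2457, which stayed in the medium. There were 3 libraries from DMSO-treated cells, 2 from cells at 10 µM STM2457, and 1 each from cells at 20 µM and 30 µM. No library without Dox was used here, so the values describe cells in which X inactivation was under way in every group.

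Polycomb proteins form complexes that mark chromatin with histone modifications and keep genes silent. PRC1 carries a RING1 or RNF2 (RING1B) ubiquitin ligase that acts on histone H2A, paired with a PCGF protein that defines the type of complex, whereas PRC2 carries EZH2 or EZH1, which methylates lysine 27 of histone H3. Complexes with PCGF3 or PCGF5 are recruited by Xist RNA through HNRNPK, PRC2 is recruited in turn with the help of JARID2, and SMCHD1, a non-canonical SMC protein, acts later in X inactivation to keep genes of the inactive X (Xi) silent.

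Libraries held 9300549 to 28030180 read pairs on genes, the shallowest being that at 20 µM. The 7 libraries formed sets of 4 and 3 by autosomal expression, not by dose. Principal component 1 over 13103 autosomal genes held 78.8% of the variance and put DMSO replicates 1 and 2 with both 10 µM libraries (set 1), and DMSO replicate 3 with the 20 µM and 30 µM libraries (set 2). The sets were found in the data and the labels name no batch that matches them. Each of the higher doses is in set 2 and 10 µM is in set 1 only, so that dose and set are partly confounded and only the DMSO libraries link the sets, and values are therefore also given within each set. The summed level of 10 mES cell markers was 1952 to 2145 RPM in set 1 and 1789 to 1965 RPM in set 2, with 9 of the 10 past the filter and Sox2 listed at 0 in all 7 libraries. The summed level of 14 fibroblast markers was 928 to 1194 RPM in set 1 and 451 to 635 RPM in set 2, nearly all of it from Fn1. Without Fn1 the sums were 45.7 to 58.5 RPM and 27.6 to 33.2 RPM. The collagen genes Col1a1, Col1a2 and Col3a1 were each below 1 RPM in every library. Col5a1, a further collagen gene of the list, was at 30.5 to 42.0 RPM in set 1 and 15.3 to 21.4 RPM in set 2. Xist RNA levels were 1540 to 1720 RPM in set 1 and 3209 to 5172 RPM in set 2. The part of any of these differences in the results on Polycomb genes was not tested. In such bulk samples fewer cells of a type and less RNA per cell cannot be told apart.

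All 10 members are protein-coding genes, and no other gene of the table overlaps the counted span of any of them on either strand. The values count read pairs over whole transcripts, introns included, and with their strand, so a level reflects RNA along the gene and not spliced mRNA alone. The exons of the principal transcript make up between 3.14% (Jarid2) and 52.3% (Ring1) of the counted span. In mm10, the PRC1 genes lie at chr17:34020792-34024680 on the minus strand (Ring1, 7 exons), chr1:151469406-151500823 on the minus strand (Rnf2, 8 exons), chr5:108461332-108503099 on the plus strand (Pcgf3, 11 exons), chr19:36379067-36456204 on the plus strand (Pcgf5, 9 exons) and chr6:100228565-100287358 on the minus strand (Rybp, 5 exons). The PRC2 genes lie at chr6:47530274-47595030 on the minus strand (Ezh2, 20 exons), chr7:89954654-89980976 on the minus strand (Eed, 12 exons), chr11:79993106-80034123 on the plus strand (Suz12, 16 exons) and chr13:44730774-44921643 on the plus strand (Jarid2, 18 exons). Smchd1 lies at chr17:71344493-71475343 on the minus strand and has 48 exons. The counted span covered 68.5% of the GENCODE gene for Pcgf5 and 73.1% for Rnf2, and at least 91.3% for each of the other members.

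The start regions of 5 members are shown as examples of the patterns below. Suz12 varied least between DMSO libraries as deposited, whereas Jarid2, Eed, Pcgf5 and Smchd1 differed between the library sets. Ring1 and Rnf2 also differed between the sets and are not shown. The 5 regions were chosen after the values of their genes were seen. Each is the 250 bases before the annotated start in RefSeq on build GRCm38.p6, which is mm10, and capitals mark GGGCGG or its reverse complement CCGCCC, the core of the GC box. They lie at chr11:79992856-79993105 (Suz12, plus strand), chr13:44730524-44730773 (Jarid2, plus strand), chr7:89980977-89981226 (Eed, minus strand) and chr17:71475344-71475593 (Smchd1, minus strand).
Suz12: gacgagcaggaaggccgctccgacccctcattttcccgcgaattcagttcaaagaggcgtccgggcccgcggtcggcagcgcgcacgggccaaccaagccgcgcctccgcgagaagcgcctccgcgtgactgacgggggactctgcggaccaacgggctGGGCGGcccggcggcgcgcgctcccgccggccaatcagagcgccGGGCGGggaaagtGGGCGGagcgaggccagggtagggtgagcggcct
Jarid2: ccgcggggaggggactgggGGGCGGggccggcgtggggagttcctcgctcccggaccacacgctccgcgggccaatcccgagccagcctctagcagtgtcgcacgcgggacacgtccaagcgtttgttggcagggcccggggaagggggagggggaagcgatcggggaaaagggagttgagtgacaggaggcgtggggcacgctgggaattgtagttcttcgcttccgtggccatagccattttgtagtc
Eed: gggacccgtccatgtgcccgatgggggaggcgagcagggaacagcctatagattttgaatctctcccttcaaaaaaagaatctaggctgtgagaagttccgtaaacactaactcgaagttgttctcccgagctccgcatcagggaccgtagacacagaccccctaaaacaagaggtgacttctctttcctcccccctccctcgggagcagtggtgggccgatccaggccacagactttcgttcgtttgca
Smchd1: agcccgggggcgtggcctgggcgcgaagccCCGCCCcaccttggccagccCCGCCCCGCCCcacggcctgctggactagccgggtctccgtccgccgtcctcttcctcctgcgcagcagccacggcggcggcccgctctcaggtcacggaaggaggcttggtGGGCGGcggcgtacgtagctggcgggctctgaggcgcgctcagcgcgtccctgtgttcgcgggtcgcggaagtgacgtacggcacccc
The Suz12 window holds 37 CpG dinucleotides and 3 GC box cores and the Smchd1 window 33 and 4, against a median of 6 CpG in 32851 mouse promoters of the same length. The Jarid2 window holds 23 CpG and 1 core, and the Eed window 12 CpG and no core. RefSeq gives a second start for Jarid2, 497 bases downstream, whose window is not shown and holds 22 CpG, 1 core and 1 TATAAA. Of all these promoters, 32.7% held GGGCGG on either strand.

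RefSeq gives 3 starts for Pcgf5, all on the plus strand of chromosome 19, and the counted span begins at the second of them. The windows before these starts lie at chr19:36348079-36348328, chr19:36378817-36379066 and chr19:36409498-36409747.
Pcgf5 start 1: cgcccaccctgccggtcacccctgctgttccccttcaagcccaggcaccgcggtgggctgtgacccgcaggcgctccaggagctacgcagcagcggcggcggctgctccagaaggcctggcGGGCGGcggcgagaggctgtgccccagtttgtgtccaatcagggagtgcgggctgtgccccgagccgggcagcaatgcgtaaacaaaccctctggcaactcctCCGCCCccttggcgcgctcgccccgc
Pcgf5 start 2: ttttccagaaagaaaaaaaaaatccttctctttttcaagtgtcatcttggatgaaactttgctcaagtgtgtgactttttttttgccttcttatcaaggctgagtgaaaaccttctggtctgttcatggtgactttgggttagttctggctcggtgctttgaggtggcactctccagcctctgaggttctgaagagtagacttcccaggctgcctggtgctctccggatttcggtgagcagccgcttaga
Pcgf5 start 3: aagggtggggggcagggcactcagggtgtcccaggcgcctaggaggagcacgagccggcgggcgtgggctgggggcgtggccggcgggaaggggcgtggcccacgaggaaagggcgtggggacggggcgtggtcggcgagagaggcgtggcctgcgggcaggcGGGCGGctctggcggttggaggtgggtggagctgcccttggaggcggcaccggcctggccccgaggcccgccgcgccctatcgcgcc
The second window, at the start of the counted span, holds 4 CpG and no GC box core, while the first holds 23 CpG and 2 cores and the third 28 CpG and 1 core. The first start lies 30738 bases upstream of the counted span, so RNA between it and the second start was not counted for Pcgf5. The 9 members with a promoter in the reference held 4 to 37 CpG at the start nearest the counted one. Of these 9, 5 held GGGCGG, 3 held CCAAT (33.8% of all promoters) and 0 held TATAAA (12.4% of all promoters), each searched on both strands. A match describes the letters in this window and is not evidence of a site in use.

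**Figure D1:**
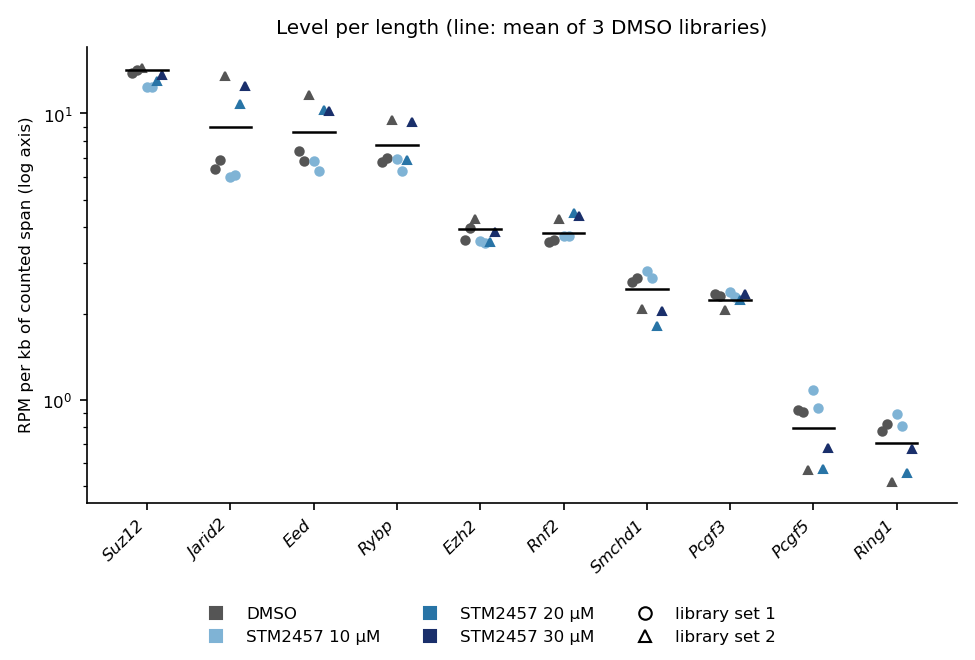
RNA level of each member per kb of its counted span (RPM per kb, log axis) in the 7 libraries, with the line at the mean of the 3 DMSO libraries, colours for dose and marker shapes for library set. Suz12 was highest, at 14.2 RPM per kb, and Ring1 and Pcgf5 were lowest, at 0.705 and 0.798.

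Levels of different genes were compared per kb of counted span. Such a level depends on the span counted and on the share of exons in it. For Pcgf5 the third start lies 30681 bases inside the counted span, and which start was in use was not tested. In DMSO, Suz12, the PRC2 subunit that holds the core complex together, was highest at 14.2 ± 0.289 RPM per kb (SD, n = 3), above 98.2% of the tested genes. It was followed by Jarid2 at 8.94 ± 3.97, Eed at 8.62 ± 2.63 and Rybp at 7.74 ± 1.52 RPM per kb. Ranges over the 3 DMSO libraries overlapped between Jarid2 and Eed and between Eed and Rybp, so these neighbours were not ordered beyond their spread. Ezh2, the PRC2 methyltransferase, was at 3.96 ± 0.349 and Rnf2 at 3.82 ± 0.407 RPM per kb, and these also overlapped. Smchd1 at 2.44 ± 0.324 and Pcgf3 at 2.24 ± 0.156 RPM per kb overlapped as well. Pcgf5 at 0.798 ± 0.199 and Ring1 at 0.705 ± 0.167 RPM per kb were lowest, below the median of 1.10 over 13599 tested genes. Within the PRC2 core, the Ezh2/Suz12 ratio per kb was 0.260 to 0.297 over the 7 libraries. Rybp, the lowest of the upper 4 members, was above Ezh2 in 7 of 7 libraries.

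**Figure D2:**
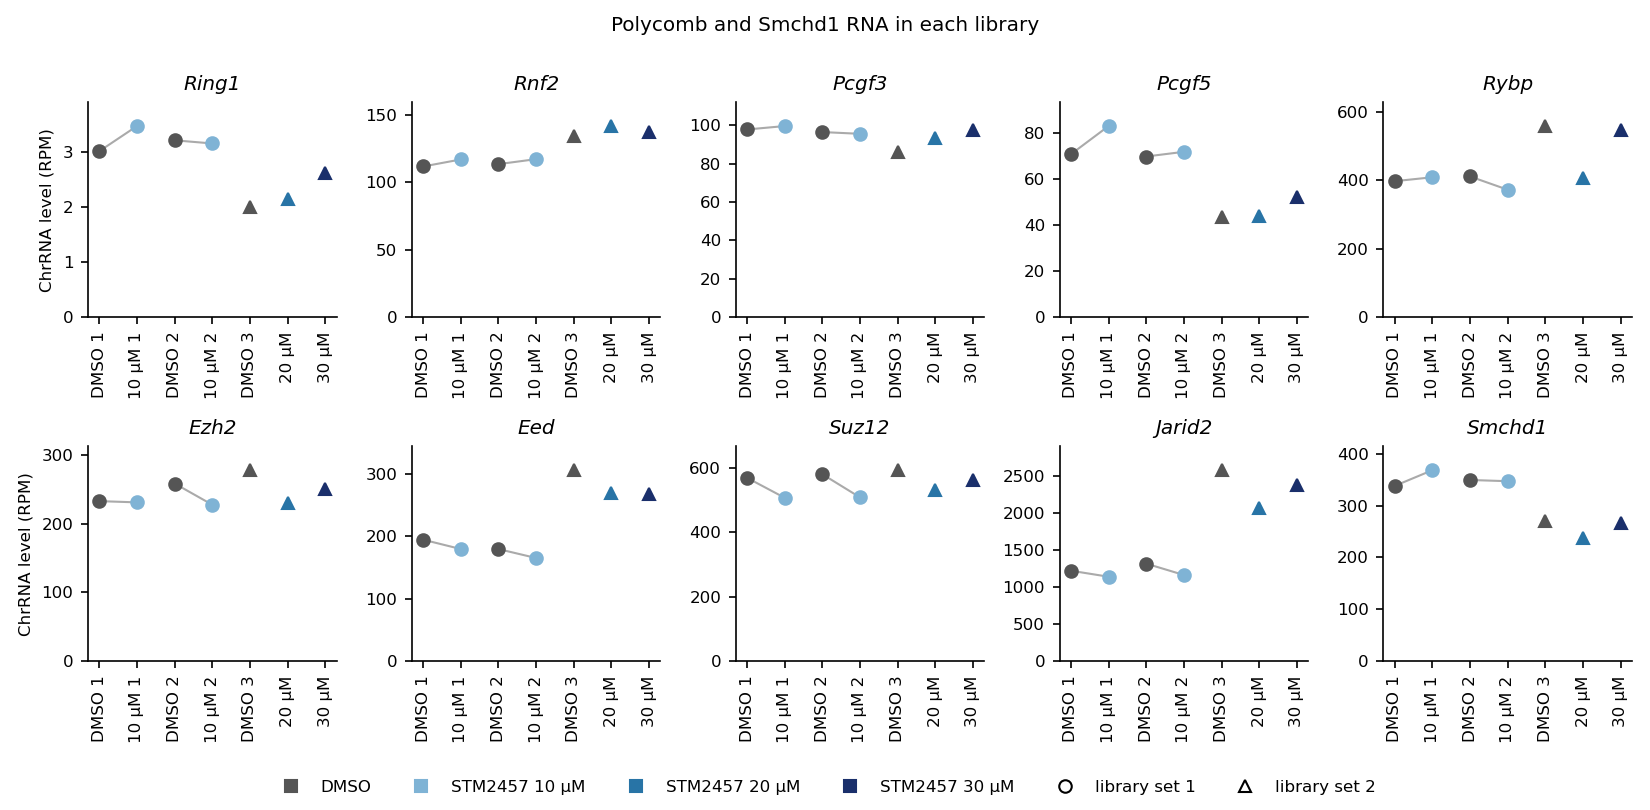
RNA level (RPM, linear axes from 0) of each member in each library, with grey lines joining 10 µM libraries to the same-numbered DMSO library. Circles (set 1) and triangles (set 2) do not overlap for Ring1, Rnf2, Pcgf5, Eed, Jarid2 and Smchd1 (6 of 10 members, against 58.5% of tested genes), and for Suz12 both 10 µM libraries, at 507 and 508 RPM, lie below all DMSO libraries.

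The first question the design asks of these genes is whether 10 µM STM2457, with 2 libraries against 3 of DMSO, changed their RNA levels. No member passed the test (limma, Benjamini-Hochberg adjusted over 13599 genes, adjusted p of at least 0.811 for every member), nor did any other gene, so that 0% of tested genes were called. At an unadjusted p under 0.05 there were 0 members and 212 genes, and edgeR and DESeq2 called 0 members too, among 0 and 1 genes. These fits set DMSO replicate 3 of set 2 beside libraries of set 1 with no term for set. The difference between the sets therefore adds to their spread, and the absence of a call does not show the absence of a change at 10 µM. Replicate numbers 1 and 2 pair a DMSO well with a 10 µM well of 1 batch of cells. With this pairing as a block limma called 1012 genes (7.44% of those tested) but again 0 members. At an unadjusted p under 0.05 this fit had 2 members (Suz12 and Jarid2) and 2758 of the 13599 genes. The block removes DMSO replicate 3, which has no partner, and leaves 1 residual degree of freedom per gene before the spread is shared between genes. Counts of members are read against these shares. Those whose 10 µM libraries were both below all 3 DMSO libraries were 3 of 10 (Ezh2, Suz12 and Jarid2), against 8.74% of all tested genes, and 1 (Pcgf5) was above them, against 16.6%. Within the pairs, 4 members (Ezh2, Eed, Suz12 and Jarid2, the 4 of PRC2) were lower at 10 µM in both, against 26.9% of tested genes, and 2 (Pcgf5 and Rnf2) were higher in both, against 36.3%. With TMM scaling 4 members (Eed besides those 3) had both 10 µM libraries below all DMSO libraries, against 12.5%, and 0 had them above, against 12.3%. The same 4 PRC2 genes were then lower in both pairs, against 32.8%, and 0 members were higher in both, against 29.8%.

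The second question is whether levels followed dose over all 7 libraries. The slope per 10 µM passed the test for 0 members and 0 genes (0% of those tested; limma, adjusted p of at least 0.512 for every member), with 0 members and 1174 genes at an unadjusted p under 0.05. For this slope edgeR called 0 genes and DESeq2 129, of which 0 were members. With library set as a term, limma called 27 genes (0.199% of those tested) and 0 members. For 5 members (Ring1, Pcgf5, Rybp, Eed and Jarid2) this term turned the sign of the slope. Without DMSO replicate 3, which leaves the sets and the higher doses fully aligned, 2485 of the 13599 tested genes were called. Of the 10 members 1 was called, Jarid2 (slope 0.34 per 10 µM, limma adjusted p = 0.0331), a lower share than over all tested genes. For 20 µM and 30 µM, with 1 library each, levels were set beside DMSO replicate 3 of the same set with no test between conditions. Exact 95% intervals on these ratios cover counting error only.

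Among the PRC1 genes, Ring1, which encodes the RING1A ubiquitin ligase, was the lowest member. Its levels were 3.01, 3.21 and 2.00 RPM in DMSO replicates 1 to 3, 3.47 and 3.15 RPM at 10 µM, 2.15 RPM at 20 µM and 2.61 RPM at 30 µM, the 20 µM value resting on 20 read pairs. DMSO and 10 µM libraries overlapped, and all 3 libraries of set 2 were below all 4 of set 1. The 10 µM difference was 0.22 ± 0.25 on the log2 scale (SE) without pairing and 0.07 ± 0.17 with it. The ratios to DMSO replicate 3, 1.07 (interval 0.598 to 1.87) at 20 µM and 1.30 (0.868 to 1.97) at 30 µM, show that no difference was detectable at this depth.

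Rnf2 encodes RING1B, the main H2A ubiquitin ligase of mES cells. Its levels were 112, 113 and 135 RPM in DMSO, 117 and 117 RPM at 10 µM, 142 RPM at 20 µM and 137 RPM at 30 µM. Each 10 µM library was above the DMSO library of the same number, at 1.05-fold and 1.03-fold, but within the range of all DMSO libraries. With TMM scaling the second pair turned, at 108 RPM against 110 RPM in DMSO. The 10 µM difference was -0.03 ± 0.14 on the log2 scale over all libraries (-0.12 with TMM, -0.14 with edgeR and with DESeq2) and 0.06 ± 0.07 within pairs. Both higher doses were close to DMSO replicate 3, with ratios of 1.05 (0.985 to 1.12) and 1.02 (0.969 to 1.07). Per kb and within a library, Rnf2 exceeded Ring1 by 4.17- to 4.60-fold in set 1 and 6.51- to 8.32-fold in set 2.

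Pcgf3 and Pcgf5 encode the PCGF subunits of the variant PRC1 complexes that Xist RNA recruits. Pcgf3 levels were 97.9, 96.6 and 86.0 RPM in DMSO, 99.7 and 95.7 RPM at 10 µM, 93.3 RPM at 20 µM and 97.8 RPM at 30 µM. This was the narrowest range of the members, with the highest library 1.16-fold the lowest, and inhibitor libraries overlapped DMSO. Its 10 µM difference was 0.06 ± 0.14 on the log2 scale, and with TMM scaling it was -0.03, so its direction depends on the scaling. Ratios to DMSO replicate 3 were 1.08 (1.00 to 1.18) at 20 µM and 1.14 (1.07 to 1.21) at 30 µM. With TMM scaling the DMSO libraries of Pcgf3 were at 92.5, 93.4 and 93.0 RPM.

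Pcgf5 levels were 70.9, 69.9 and 43.8 RPM in DMSO, 83.2 and 72.0 RPM at 10 µM, 44.1 RPM at 20 µM and 52.2 RPM at 30 µM. The 10 µM libraries were both above all DMSO libraries, and all 3 libraries of set 2 were below all of set 1. Its 10 µM difference of 0.36 ± 0.24 on the log2 scale became 0.13 ± 0.08 with the pairing (limma, adjusted p = 0.364). The pairs were unequal, at 1.17-fold and 1.03-fold. Against DMSO replicate 3 the ratio was 1.01 (0.894 to 1.13) at 20 µM and 1.19 (1.09 to 1.30) at 30 µM. With TMM scaling the pairs were 78.9 against 67.0 RPM and 66.2 against 67.6 RPM, so that the second pair turned and the 10 µM libraries overlapped DMSO. The slope of Pcgf5 over all libraries was -0.10 per 10 µM and 0.08 with library set as a term. It was -0.20 without DMSO replicate 3 and -0.05 without the 20 µM library, and none of these slopes passed the test. Pcgf3 exceeded Pcgf5 per kb of counted span by 2.21- to 2.55-fold in set 1 and 3.46- to 3.91-fold in set 2. These ratios depend on the span of Pcgf5, which begins at its second start.

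Rybp encodes a subunit of variant PRC1 that also binds ubiquitinated H2A. Its levels were 397, 410 and 558 RPM in DMSO, 408 and 372 RPM at 10 µM, 405 RPM at 20 µM and 547 RPM at 30 µM. The 10 µM libraries overlapped DMSO, with pair ratios of 1.03 and 0.906. The 20 µM library, the shallowest, was 0.726-fold DMSO replicate 3 (0.700 to 0.754), the lowest ratio of any member at either higher dose, and 0.745-fold with TMM scaling, whereas the 30 µM library was at 0.982-fold (0.957 to 1.01). The interval at 30 µM includes no difference. In the 20 µM library 5 genes (Gphn, Cmss1, Camk1d, Cdk8 and Lars2) took 8.92% of all read pairs, against 0.212% to 1.16% in the others, and the part of this in its ratios was not tested. Yaf2, the paralog of Rybp, was lower per kb, with a Rybp/Yaf2 ratio of 6.80 to 7.48 in set 1 and 11.7 to 12.8 in set 2.

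**Figure D3:**
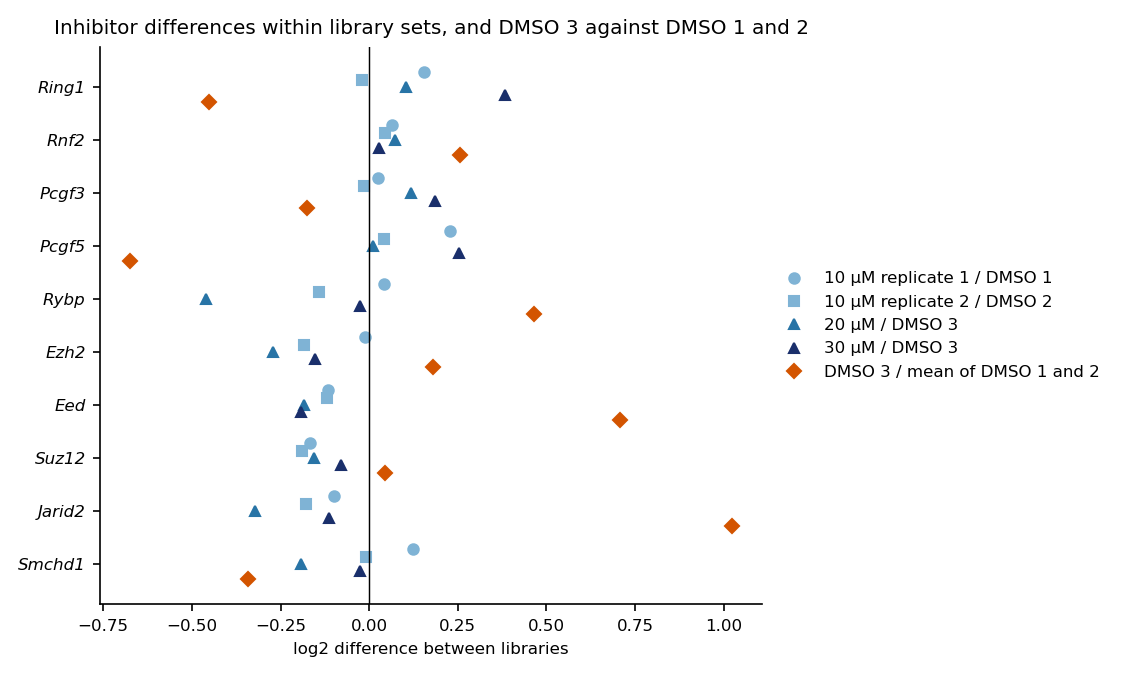
Log2 difference for each member between the 10 µM and DMSO libraries of the same number, between the 20 µM or 30 µM library and DMSO replicate 3, and between DMSO replicate 3 and the mean of DMSO replicates 1 and 2. Differences at 20 µM and 30 µM are of RPM, and the others of RPM + 1. The difference between DMSO libraries was 1.02 for Jarid2 and 0.04 for Suz12, and Eed, Suz12, Jarid2 and Ezh2 lay below 0 in all 4 inhibitor comparisons, as did 14% of tested genes.

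The 4 PRC2 genes were lower in each 10 µM library than in the DMSO library of the same number, and lower at both higher doses than in DMSO replicate 3. Being lower in all 4 comparisons held for 4 of 10 members and for 14% of tested genes, and with TMM scaling for the same 4 members and 17.6%. It also held for 4 of 8 partners on the Xi, 5 of 14 opposing genes, 3 of 9 other PRC2 subunits and 6 of 31 other PRC1 subunits. Of the markers tested, it held for 0 of 9 of mES cells and 1 of 6 of fibroblasts. The summed fibroblast markers showed the same direction, with 1150 and 928 RPM in the first pair, 1194 and 1053 RPM in the second, and 635, 451 and 494 RPM in DMSO replicate 3 and at 20 µM and 30 µM. Nearly all of this sum was Fn1, with pair ratios of 0.796 and 0.871 and a call with the pairing (limma, adjusted p = 0.00144) that edgeR did not give (adjusted p = 0.169). Without Fn1 the sums were 58.5 and 58.5 RPM in the first pair and 45.7 and 52.7 RPM in the second, and their part in the PRC2 differences was not tested. With TMM scaling the PRC2 genes had ratios to DMSO replicate 3 of 0.821 to 0.920 at 20 µM and 0.848 to 0.917 at 30 µM. Against the mean of all 3 DMSO libraries, which mixes the sets, the direction turned for Eed (1.19 and 1.18 at 20 µM and 30 µM) and Jarid2 (1.21 and 1.40). No PRC2 gene passed the test at 10 µM, and the higher doses were not tested singly. Ezh2, the catalytic subunit, was at 233, 259 and 278 RPM in DMSO, 231 and 228 RPM at 10 µM, 231 RPM at 20 µM and 250 RPM at 30 µM. The 10 µM libraries were below all DMSO libraries, but the first pair differed by only 0.992-fold and the second by 0.880-fold. The 10 µM difference was -0.16 ± 0.13 on the log2 scale and -0.10 ± 0.06 with the pairing (limma, adjusted p = 0.411). Without the pairing it was -0.25 with TMM, -0.26 with edgeR and -0.27 with DESeq2. Ratios to DMSO replicate 3 were 0.829 (0.789 to 0.871) at 20 µM and 0.899 (0.867 to 0.932) at 30 µM. Its dose slope was -0.03 per 10 µM and turned to 0.01 with TMM scaling. Ezh1, the alternative methyltransferase, was lower, and the Ezh2/Ezh1 ratio per kb was 1.95 to 2.45 in set 1 and 3.96 to 4.84 in set 2.

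Eed encodes the subunit that binds trimethylated lysine 27 and stimulates the enzyme. Its levels were 195, 180 and 306 RPM in DMSO, 180 and 165 RPM at 10 µM, 270 RPM at 20 µM and 268 RPM at 30 µM. Libraries of set 2 were all above those of set 1, and within set 1 the first 10 µM library and DMSO replicate 2 were both at 180 RPM. The pairs gave similar ratios, 0.923 and 0.920, and the higher doses 0.880 (0.841 to 0.922) and 0.875 (0.845 to 0.906). In the fit the 10 µM difference was -0.35 ± 0.24 on the log2 scale over all libraries and -0.12 ± 0.07 with the pairing (limma, adjusted p = 0.306). The dose slope, 0.11 per 10 µM, became -0.08 with library set as a term, and neither passed the test.

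Suz12 levels were 569, 580 and 593 RPM in DMSO, 507 and 508 RPM at 10 µM, 532 RPM at 20 µM and 561 RPM at 30 µM. All 4 inhibitor libraries were below all 3 DMSO libraries, which held for no other member and for 1.87% of tested genes. With TMM scaling the inhibitor and DMSO libraries of Suz12 overlapped, the lowest DMSO library being at 538 RPM and the 20 µM and 30 µM libraries at 589 and 587 RPM, and 0 members met this rule against 2.21% of tested genes. DMSO libraries of Suz12 varied little as deposited, with a coefficient of variation of 2.04% against 44.4% for Jarid2, but were at 538, 561 and 641 RPM with TMM scaling. The pairs were at 0.891-fold and 0.876-fold, and the 10 µM difference as deposited was -0.18 ± 0.06 on the log2 scale with the pairing and -0.19 ± 0.11 without it. Without the pairing it was larger with other scalings, at -0.29 each with TMM, edgeR and DESeq2, and with edgeR and the pairing it was -0.21. With the pairing it missed the threshold (limma, adjusted p = 0.0530), and with edgeR and the same pairing the adjusted p was 0.296. Ratios to DMSO replicate 3 were 0.897 (0.868 to 0.927) at 20 µM and 0.946 (0.923 to 0.970) at 30 µM. These ratios were no lower than those within the pairs, and the slope over all libraries was -0.03 ± 0.05 per 10 µM.

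Jarid2 encodes an accessory PRC2 subunit that links the complex to H2A ubiquitination. Its levels were 1222, 1318 and 2581 RPM in DMSO, 1141 and 1164 RPM at 10 µM, 2066 RPM at 20 µM and 2387 RPM at 30 µM. The 10 µM libraries were below all DMSO libraries, while all libraries of set 2 were far above those of set 1. DMSO replicate 3 was 2.03-fold the mean of the other DMSO libraries, the largest such difference of the members. For 10 µM the difference was -0.48 ± 0.32 on the log2 scale over all libraries and -0.14 ± 0.06 within pairs (limma, adjusted p = 0.194). Within pairs the ratios were 0.933 and 0.884, and against DMSO replicate 3 they were 0.801 (0.787 to 0.814) at 20 µM and 0.925 (0.914 to 0.936) at 30 µM. The slope over all libraries was 0.19 ± 0.15 per 10 µM, and -0.07 ± 0.05 with library set as a term.

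Smchd1 levels were 338, 350 and 271 RPM in DMSO, 368 and 347 RPM at 10 µM, 237 RPM at 20 µM and 266 RPM at 30 µM. The 10 µM libraries overlapped DMSO, with pair ratios of 1.09 and 0.993, and all libraries of set 2 were below those of set 1. The fitted 10 µM difference was 0.17 ± 0.15 on the log2 scale and 0.06 ± 0.06 with the pairing, and without the pairing it was 0.08 with TMM, 0.08 with edgeR and 0.07 with DESeq2. At 20 µM the level was 0.875-fold DMSO replicate 3 (0.833 to 0.920), and at 30 µM it was 0.983-fold (0.948 to 1.02), which includes no difference. The slope of -0.12 ± 0.08 per 10 µM, whose adjusted p of 0.512 (limma) was the lowest of the members, was -0.0069 ± 0.05 with library set as a term. This slope was -0.07 without the 20 µM library, with edgeR and with DESeq2, and -0.08 with TMM scaling.

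Over the members as a whole, 6 (Rybp, Ezh2, Eed, Suz12, Jarid2 and Smchd1) were below DMSO replicate 3 at both higher doses, against 34.1% of tested genes, and 4 (Ring1, Rnf2, Pcgf3 and Pcgf5) were above it at both, against 29.2%. With TMM scaling these were 6 and 3 (without Rnf2), against 37.4% and 29.5%. These counts use the point values, and the counting intervals of Ring1 and Rnf2 at both doses, of Pcgf3 and Pcgf5 at 20 µM, and of Rybp and Smchd1 at 30 µM include 1. The median over the members was -0.17 at 20 µM and -0.03 at 30 µM on the log2 scale, against -0.10 and 0.04 over all tested genes. For these higher doses the members' values are of RPM and those of all tested genes of RPM + 1, which shrinks the differences of low genes. In the pairs the members' medians were 0.03 and -0.07, against -0.02 and 0.06. At 10 µM the difference from the fit without pairing had a median of -0.09 over the members and 0.09 over all tested genes. With the pairing these medians were -0.02 and 0.03. The fit without pairing includes DMSO replicate 3 of the other set. Its difference from DMSO replicates 1 and 2 had a median of 0.11 over the members and -0.18 over all tested genes.

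For 7 members (Jarid2, Eed, Pcgf5, Rybp, Ring1, Smchd1 and Rnf2) the difference between DMSO libraries was larger than any difference of an inhibitor library from its DMSO library in the same set, which held for 55% of tested genes. For Rybp the sizes were nearly equal, at 0.466 and 0.460 on the log2 scale. DMSO replicate 3 differed from the mean of DMSO replicates 1 and 2 by more than 0.5 on the log2 scale for 3 members, higher for Jarid2 (1.02) and Eed (0.71) and lower for Pcgf5 (-0.67), while 42.1% of tested genes passed this size in either direction. Smaller differences were seen for Rybp (0.47), Rnf2 (0.26), Ezh2 (0.18) and Suz12 (0.04), and for Ring1 (-0.45), Smchd1 (-0.34) and Pcgf3 (-0.18). The median over all tested genes was -0.18 and became -0.01 with TMM scaling, and that of Pcgf3 was -0.175 against a median of -0.178 to 3 digits. The sets did not overlap for 6 members as deposited (58.5% of tested genes) and for 9 with TMM scaling, all but Pcgf3 (58.4%). The 6 of 10 are near the background share, and since the members share the libraries the 9 of 10 are given as a count only. Ratios between PRC2 RNAs also differed between the sets. Jarid2/Suz12 ratios per kb were 0.462 to 0.492 in set 1 and 0.835 to 0.936 in set 2, and Eed/Suz12 ratios were 0.483 to 0.553 and 0.745 to 0.806. In contrast, Ezh2/Suz12 ratios overlapped, at 0.260 to 0.289 and 0.275 to 0.297. Of the 8 ratios computed, that of Jarid2 to Smchd1 moved most, from 2.12 to 2.58 in set 1 up to 5.97 to 6.53 in set 2. These ratios are within libraries and need no scaling between them, and since the sets were defined from the same libraries they are given as a description without a test.

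Genes of the same pathways were then examined from lists of subunits and partners. Of 33 other PRC1 subunits 31 were tested, and 0 passed in either direction in the fit without pairing or in the dose trend. With the pairing 3 were called higher and 3 lower, and the median difference of the 31 was -0.02 on the log2 scale against 0.03 over all tested genes. These 6 of 31 stand beside 7.44% of all tested genes. With edgeR and the pairing 2 of the 31 were called, beside 6.47% of all tested genes, a share near the background. Among those higher were Mga, a DNA-binding subunit of PCGF6 complexes (0.24 ± 0.06 on the log2 scale, limma adjusted p = 0.0046), and Scmh1 (0.20 ± 0.07, limma adjusted p = 0.0424). Lower were Fbrsl1, a paralog of the AUTS2 subunit (-0.33 ± 0.07, limma adjusted p = 9.97e-05), Phc1, which forms polymers of canonical PRC1 (-0.26 ± 0.06, limma adjusted p = 0.0021), and Max, the partner of MGA (-0.22 ± 0.06, limma adjusted p = 0.0140). Of these 5 genes, only Fbrsl1 was called with edgeR and the pairing too. The pair differences on the log2 scale were 0.36 and 0.12 for Mga, 0.28 and 0.12 for Scmh1 and -0.52 and -0.15 for Fbrsl1. They were -0.38 and -0.14 for Phc1 and -0.23 and -0.21 for Max. The SE of the fit with the pairing comes from a spread shared between genes and does not measure how far a gene's 2 pairs differ. Kdm2b, which binds unmethylated CpG and recruits PCGF1 complexes, was at 81.8 to 109 RPM in DMSO replicates 1 and 2 and in the 10 µM libraries, 277 RPM in DMSO replicate 3, 248 RPM at 20 µM and 322 RPM at 30 µM, so that it differed between the sets in the same direction as Jarid2.

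Of 10 other PRC2 subunits 9 were tested, and 0 were called in the main fits or with the pairing, where the lowest adjusted p was 0.0730 (Aebp2, -0.18 ± 0.07 on the log2 scale, limma). With the pairing 7 of the 9 had a negative difference, with a median of -0.06 against 0.03 over all tested genes. The 2 highest dose slopes were those of Epop (0.34 ± 0.19 per 10 µM) and Rbbp4 (0.06 ± 0.08), and the 2 lowest those of Phf1 (-0.26 ± 0.15) and Ezh1 (-0.25 ± 0.14). With library set as a term these were 0.13 for Epop, -0.04 for Rbbp4, which changed sign, -0.04 for Phf1 and -0.03 for Ezh1. Phf19, named after its values were seen, had a slope of -0.25 ± 0.10, and with library set as a term its slope of -0.18 was the steepest of the 9. Of 14 genes whose products oppose Polycomb marks or belong to complexes that do, 14 were tested and 0 were called. With the pairing 11 of the 14 had a negative difference, with a median of -0.08 against 0.03 over all tested genes. Their 2 highest slopes were those of Kdm6b, a demethylase of lysine 27 (0.21 ± 0.13 per 10 µM), and Mbd6 (0.18 ± 0.16), and their 2 lowest those of Ogt, which adds N-acetylglucosamine to proteins (-0.31 ± 0.14), and Bap1, the H2A deubiquitinase (-0.17 ± 0.13). With library set as a term Mbd6 (-0.04) and Bap1 (0.02) changed sign, and the slopes of Kdm6b and Ogt were 0.04 and -0.08.

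Among 8 genes whose products act with these complexes on the Xi, all tested, 0 were called in the fit without pairing and 1 was called with it (limma or edgeR), beside 7.44% (limma) and 6.47% (edgeR) of all tested genes. Their median with the pairing was -0.13 on the log2 scale against 0.03 over all tested genes (limma). The gene called was Spen, whose product binds the Xist A-repeat and starts silencing, with 109, 115 and 191 RPM in DMSO, 88.9 and 95.7 RPM at 10 µM, 172 RPM at 20 µM and 184 RPM at 30 µM. Its 10 µM libraries were below all DMSO libraries and each inhibitor library was below the DMSO libraries of its set. With the pairing Spen differed by -0.28 ± 0.07 on the log2 scale (limma adjusted p = 0.00396), and it was called with edgeR and the pairing too (adjusted p = 0.0145). Without the pairing the difference was -0.53 and did not pass (limma adjusted p = 0.811). Hnrnpk, which encodes the protein that bridges Xist RNA and PRC1, was at 171 to 197 RPM in DMSO and 209 and 215 RPM at 10 µM, 203 RPM at 20 µM and 153 RPM at 30 µM, with no call.

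**Figure D4:**
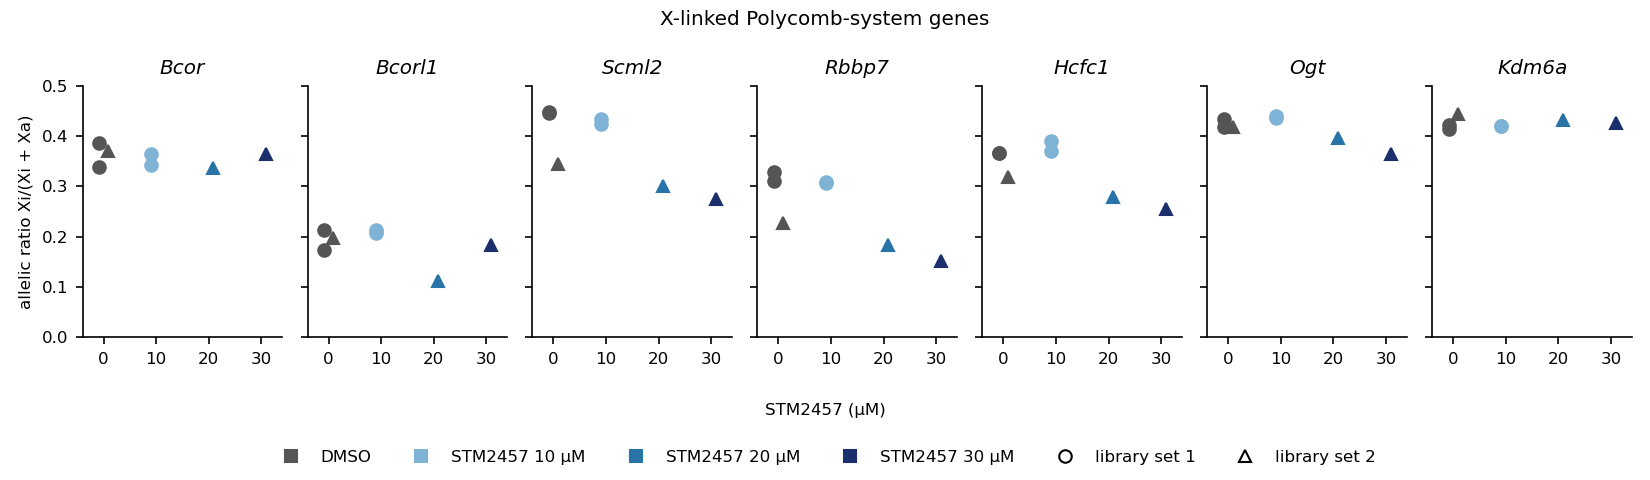
Allelic ratio Xi/(Xi + Xa) of 7 X-linked Polycomb-system genes in each library against STM2457 dose (µM), with points of set 1 drawn slightly to the left and those of set 2 slightly to the right of their dose. Scml2, Rbbp7 and Hcfc1 were lowest at 30 µM, at 0.275, 0.152 and 0.254, while Kdm6a stayed between 0.414 and 0.443.

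All 10 members are autosomal, but 8 genes of the lists are X-linked, and 7 of these had an allelic ratio, the share of allele-specific reads from the Xi. The read numbers behind these ratios are unknown, so no counting interval could be given. The dose slope of the ratio on the log2 odds scale passed the test for 55 of 386 X-linked genes (14.2%) and for 0 of these 7. Rbbp7, a histone-binding PRC2 subunit, had ratios of 0.310, 0.329 and 0.226 in DMSO, 0.306 and 0.309 in the 10 µM libraries, and 0.184 and 0.152 in the 20 µM and 30 µM libraries. The 2 higher doses were below all DMSO libraries and the slope was -0.39 ± 0.13 per 10 µM (limma adjusted p = 0.0633). Scml2, a PRC1-associated protein, had ratios of 0.448, 0.447 and 0.345 in DMSO, 0.435 and 0.424 in the 10 µM libraries, and 0.300 and 0.275 in the 20 µM and 30 µM libraries, with a slope of -0.31 ± 0.11 (limma adjusted p = 0.0748). Hcfc1, a subunit of BAP1 complexes, had ratios of 0.366, 0.366 and 0.318 in DMSO, 0.370 and 0.390 in the 10 µM libraries, and 0.279 and 0.254 in the 20 µM and 30 µM libraries, with a slope of -0.22 ± 0.09 (limma adjusted p = 0.0969). In each of these 3 genes the ratio also differed between the DMSO libraries of the sets, and without DMSO replicate 3 all 3 were called, beside 168 of all 386 genes (43.5%). With library set as a term their slopes were smaller, at -0.20 for Rbbp7, -0.15 for Scml2 and -0.11 for Hcfc1, and none passed (limma adjusted p of at least 0.0762).

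The other 4 X-linked genes had shallower slopes over all libraries. Ogt had ratios of 0.417, 0.435 and 0.419 in DMSO, 0.436 and 0.439 in the 10 µM libraries, and 0.396 and 0.365 in the 20 µM and 30 µM libraries, with a slope of -0.11 ± 0.06 per 10 µM. Bcorl1, a subunit of PCGF1 complexes, had 0.173 to 0.213 in DMSO, 0.212 and 0.206 in the 10 µM libraries, and 0.111 and 0.183 in the 20 µM and 30 µM libraries. Its slope of -0.14 per 10 µM rested on the 20 µM library, being -0.03 without it, and was -0.35 without the 30 µM library, where it was the steepest of the 7. Its paralog Bcor had 0.339 to 0.385 in DMSO, 0.365 and 0.342 in the 10 µM libraries, and 0.337 and 0.365 in the 20 µM and 30 µM libraries, with a slope of -0.02 ± 0.06. Kdm6a, an H3 lysine 27 demethylase known to escape X inactivation, had 0.414 to 0.443 in DMSO and 0.420 to 0.432 in the inhibitor libraries, with a slope of 0.0048 ± 0.05. The median slope over all 386 genes was -0.24, steeper than those of 5 of these 7 genes and shallower than those of Rbbp7 and Scml2. With library set as a term it was -0.16, and of the 7 genes only Rbbp7 was steeper.

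The gene whose level followed that of each member most closely across the 7 libraries was found by Pearson's r on log2(RPM + 1) among 13598 other genes, as a description. It was Shc4 for Jarid2 (r = 0.997), Zdbf2 for Eed (0.996), Prickle2 for Pcgf5 (0.998), Edrf1 for Smchd1 (0.997), Lrp1b for Rnf2 (0.997), Eml5 for Ring1 (0.996), Wwtr1 for Pcgf3 (0.993), Eftud1 for Rybp (0.987), Cspp1 for Ezh2 (0.972) and Rpgrip1 for Suz12 (0.970). The points share the split into library sets, and the part of this split in the r values was not tested. The r of Suz12 and Ezh2 were the lowest.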

How the data were processed

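ChrRNA-seq libraries of C7H8 mES cells comprised 3 with DMSO and 2, 1 and 1 with STM2457 at 10, 20 and 30 µM. The authors discarded rRNA reads (Bowtie2), aligned the remainder to N-masked mm10 (STAR), counted read pairs on genes by strand (featureCounts) and deposited RPM values scaled to each library's total on genes with edgeR. Allelic ratios were deposited by the authors as a fraction for 386 X-linked genes with at least 10 SNP-covering reads. Gene starts in the deposited tables count from 0 and were converted.

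Dividing RPM by the step between low values gave whole read pairs (within 0.05) for all values, 9300549 to 28030180 per library. The 13599 genes whose mean reached 1 RPM were tested by limma 3.58.1 (lmFit and trended eBayes) after log2(RPM + 1) transformation, which makes changes of low genes such as Ring1 look smaller. The Benjamini-Hochberg threshold was 0.05. Ratios, limited to 0.01 and 0.99, were tested as log2 odds with limma. P-values measure the spread between cultures of 1 clone. With the replicate block this spread was shared over genes of like level. The SE and p-value of a gene in that fit therefore rest little on its own pairs. Alternatives were edgeR 4.0.16 (quasi-likelihood) and DESeq2 1.42.0 on recovered read pairs in R 4.3.3, another pseudocount (0.1), filters (5 RPM or none), TMM, each library left out, the replicate block and library set. Fits were tested on simulated counts that held no difference between library sets or pairs. Recovery there does not show the power of the fits in these libraries. Replicate numbers 1 and 2 were treated as pairs because the study split the wells of a replicate from 1 batch of cells, and same-numbered deviations correlated at r = 0.621 over 13599 genes.

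Named genes are the members, genes of the lists called in any of these fits or otherwise those with the steepest 2 slopes in each direction, X-linked list genes with a ratio, and 1 gene most like each member. Kdm2b, Hnrnpk, Yaf2 and Aebp2 were added after their values were seen. Members and lists were chosen with earlier results of these data known. Epop and Ezhip were matched through RefSeq synonyms, and 9 of 10 members had a promoter sequence. Of the lists, 1 called gene is not reported here.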

Additional observations from a re-analysis of the deposited data

How the results depend on the processing

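Of 129 values of the members' 10 µM differences under alternatives, 7 changed sign, and of 149 values of their dose slopes 19 did. The 10 µM difference of Pcgf3 was -0.028 with TMM, -0.024 with edgeR, -0.031 with DESeq2 and -0.021 with edgeR and the replicate block, and that of Rnf2 was 0.056 with the replicate block, 0.029 with edgeR and the block, and -0.078 to 0.056 with 1 replicate left out, where DMSO replicate 3 gave the upper value. With the replicate block limma called 1012 genes (530 higher, 482 lower) and edgeR 880, none of them a member, and DESeq2 called 1 gene without it. Leaving out 1 replicate gave 0 to 1 called genes and 0 members at 10 µM. The slopes of Ezh2 and Suz12 were 0.010 and 0.0092 with TMM, 0.018 and 0.020 with edgeR and 0.012 and 0.014 with DESeq2. With library set in limma or edgeR the slopes were 0.083 and 0.078 for Pcgf5, 0.079 and 0.10 for Ring1, -0.042 and -0.048 for Rybp, -0.077 and -0.084 for Eed and -0.070 and -0.078 for Jarid2. Without the 30 µM library that of Rybp was -0.10, and those of Ezh2, Suz12, Jarid2 and Eed moved to -0.091, -0.089, 0.049 and 0.045. DESeq2 called 129 genes on dose, limma with library set 27 and edgeR with library set 73. Leaving out 1 replicate gave 0 to 2485 of 13599 genes and 0 to 1 of 10 members, the highest without DMSO replicate 3. There the slopes of Pcgf3 and Ezh2 were -0.0052 and 0.00078. Otherwise that of Ezh2 was down to -0.043 and that of Pcgf3 up to 0.026. Without DMSO replicate 3 the slopes of Pcgf5, Ring1, Rybp, Eed and Jarid2 were -0.20, -0.10, 0.12, 0.21 and 0.34, each over 1.5 times the value with all libraries. For the 7 allelic slopes the count called was 0 to 3 with 1 replicate left out, 3 being without DMSO replicate 3, beside 0 to 168 of all 386 genes (43.5% without DMSO replicate 3). The allelic slope of Kdm6a was -0.025 with library set and -0.0011 without the 20 µM library, and from -0.0060 to 0.024 with 1 replicate left out, while that of Bcor was -0.045 to 0.0044. Without the 20 µM library the allelic slopes of Bcorl1 and Bcor were -0.027 and -0.0030, and without the 30 µM library those of Bcorl1, Bcor and Ogt were -0.35, -0.085 and -0.049. Without the pairing, the 10 µM differences of Ezh2, Suz12, Rnf2 and Rybp were -0.25, -0.29, -0.12 and -0.30 with TMM, and that of Smchd1 was 0.078. The cause of these shifts was not tested. Fits with edgeR and the block or set, and allelic fits without the 20 µM or 30 µM library, were chosen after seeing the data. Of 40 ratios to DMSO replicate 3 recomputed with TMM or against the mean of all DMSO libraries, 20 left the counting interval. Depth limits Ring1 most, with 20 to 90 read pairs per library.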
